A study of Mus musculus with 9 samples.

Results

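Prostaglandins and leukotrienes are lipid signals made from arachidonic acid, and the genes described here encode the central enzymes of both branches: Ptgs1, Ptgs2, Ptges, Tbxas1 and Hpgd for prostaglandins and thromboxane, and Alox5, Alox5ap, Alox15, Lta4h and Ltc4s for leukotrienes and related products. They were taken as every non-control spot whose gene name was one of these 10 symbols, which gave 12 probes and 21 spots of the 55681 probes on the array. Of the 10 genes, 8 passed the filter on dim probes and were tested among 16462 genes. Ptgs2 passed that filter only through the tumour groups.

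Gene expression was measured on 9 single-colour arrays, 3 for each of 3 groups of C57BL/6J mouse cells. PECs are the control group, titled peritoneal exudate cells. The tumour-associated macrophages (TAMs) came from a fibrosarcoma and were divided by their F4/80 level into F4/80high and F4/80low TAMs. The labels give no age, sex, genotype or treatment, no other sort marker, and no description of how the fibrosarcoma was raised. They call the samples of a group biological replicates without naming separate animals, so the p-values speak only of the scatter among these 9 samples, part of which may be technical. Each tested comparison with PECs sets a tumour against the peritoneum as well as one cell population against another, and these cannot be told apart.

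Levels are given as log2 intensity relative to each array's 75th percentile, so that 0 is the brightness of that percentile and a difference of 1 is a 2-fold change. Between 36.12% and 38.27% of the 59305 non-control spots on an array were well above background, and none was saturated. All 6 TAM arrays shared slide 1 with PEC replicate 1, while PEC replicates 2 and 3 were on slide 2, so comparisons with PECs were also fitted with a slide term and on slide 1 alone. Both fits set the TAMs against PEC replicate 1 alone, so they give the same differences and are not separate checks. A call lost in them may stem from the slide or from reliance on 1 PEC array, and these cannot be told apart. Of 6 macrophage markers (Csf1r, Adgre1, Cd68, Mertk, Fcgr1 and Itgam), all 6 were above background on every PEC and F4/80high array, and Mertk alone was on none of the F4/80low arrays. Adgre1, which encodes F4/80, averaged 5.94 in F4/80high TAMs, 5.88 in PECs and 2.89 in F4/80low TAMs. The 10 neutrophil markers on the array were all above background on every F4/80low array, with a summed level of 1837 to 6708 times the percentile, against 128.9 to 170.0 in PECs, where 4 of the 10 were above background on all 3 arrays, and 228.1 to 330.7 in F4/80high TAMs, where 5 were. Most of the sum in PECs and F4/80high TAMs was Csf3r, a receptor gene that macrophages can also express; without it the sums were 22.5 to 27.8 and 13.7 to 102.7, against 1605 to 6454 in F4/80low TAMs. All 6 T cell markers on the array were also above background on every F4/80low array, against 2 on all PEC and 3 on all F4/80high arrays. The summed level of 6 NK cell markers was 9.62 to 19.6 in F4/80low TAMs. It was 1.07 to 1.48 in PECs and 1.59 to 1.665 in F4/80high TAMs. The summed level of 6 dendritic cell markers was higher in both subsets, at 34.8 to 43.6 in F4/80high and 33.3 to 79.5 in F4/80low TAMs. In PECs it was 0.47 to 0.85. Ccr7 was the brightest of these markers in both subsets, at means of 5.20 and 5.43. Zbtb46 was above background on all F4/80high arrays and no others, and Flt3 on all F4/80low arrays and no others. In bulk RNA, fewer cells of a type and less transcript per cell cannot be told apart.

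In the prostaglandin branch, the cyclooxygenases convert arachidonic acid to prostaglandin H2. Ptgs1 encodes COX-1, the form present in many resting cells, and Ptgs2 encodes COX-2, which inflammatory stimuli induce; terminal enzymes then make prostaglandin E2 (Ptges) or thromboxane A2 (Tbxas1), and Hpgd inactivates prostaglandins. In the leukotriene branch, 5-lipoxygenase (Alox5) works with its activating protein FLAP (Alox5ap), after which Lta4h makes leukotriene B4, an attractant of neutrophils, and Ltc4s makes the cysteinyl leukotrienes. Macrophages are a known source of both kinds of lipid.

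Of the 8 genes that could be tested, 4 passed in F4/80high TAMs against PECs, among 53.1% of all genes called. Ptgs1 and Ptgs2 rose, as did 25% of all genes, and Tbxas1 and Lta4h fell, as did 28%. When F4/80low TAMs were set against PECs 3 of 8 passed, among 51.9% of all genes: Ptgs2 rose (22.7% of all genes) and Ptgs1 and Tbxas1 fell (29.2%). Between the subsets 2 of 8 passed, among 32.6% of all genes, and both Ptgs1 and Ptgs2 were higher in F4/80high TAMs (18.6% of all genes). The arrays of the groups did not overlap for 5, 3 and 2 of the 8 genes in these comparisons, against 65.2%, 59.3% and 46.7% of all genes. Ptgs2 enters these counts through a filter it passed on its TAM arrays alone. The shares called were no higher than those of the whole array in any comparison, so these counts are not a result about the enzymes as a group.

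The median log2 differences of the 8 genes were −0.35, −0.55 and 0.15 in the same order, against 0.00, −0.09 and 0.08 over all genes. Their median absolute differences were 1.24, 1.24 and 0.31, against 0.70, 0.67 and 0.47. Both comparisons with PECs use the same 3 PEC arrays and are not independent. Of the 8, all but Ptgs2 were above background on all 9 arrays.

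**Figure D1:**
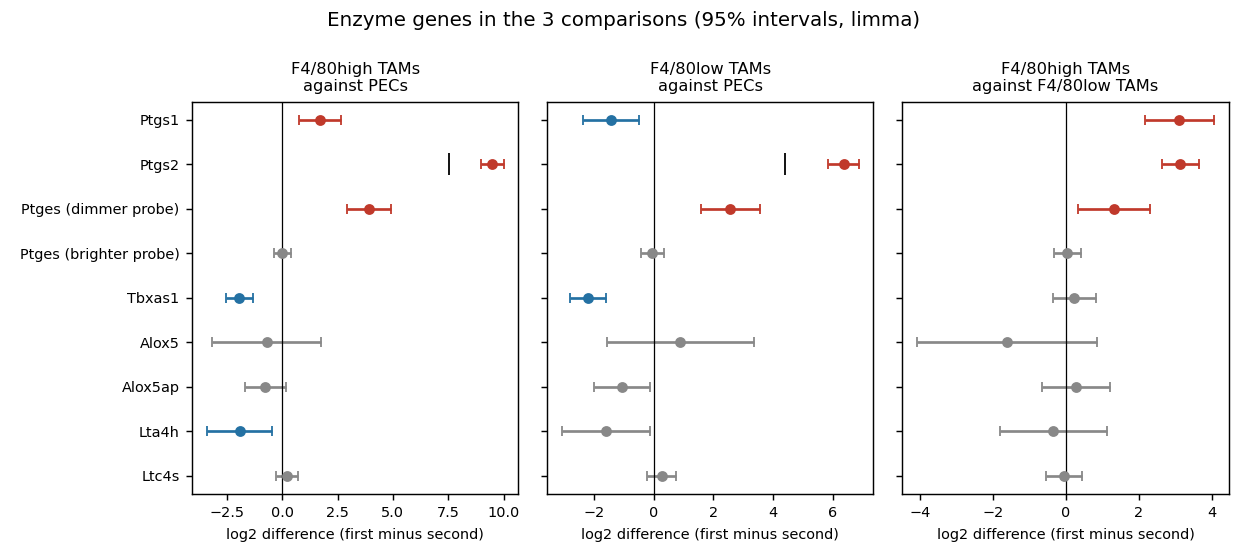
Log2 difference of each tested gene, with both Ptges probes, in the 3 comparisons (first group minus second), with 95% intervals from limma. Red and blue points passed the test as higher and lower, grey points did not, and the short black line beside Ptgs2 marks its lower bound against PECs. Ptgs1 lies at 1.70 in F4/80high and −1.42 in F4/80low TAMs against PECs, on opposite sides of 0.

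The results on Ptgs1, Ptgs2 and Ptges rest on 4 probes, and the first or the most telling 30 bases of each 60-base probe are shown as the array files give them. The probes of Ptgs1 and Ptgs2 lie at chr2:36107644-36107703 and chr1:151954744-151954803 on the plus strand of mm9. Both Ptges probes lie on the minus strand, one at chr2:30748214-30748273 and the other at chr2:30744995-30745054, with 3159 bases between them. Capitals mark ATTAAA, a known variant of the polyadenylation signal, which only the second Ptges probe held among these 4. Exon annotation of the build was not used here.
Ptgs1 probe, bases 1 to 30: gagccacacttagactctttccaaagatgt
Ptgs2 probe, bases 1 to 30: tttttgaaaagtttgaagttagaacttagg
Ptges dimmer probe, bases 1 to 30: aaccctctgatcgcctggatacatttcctc
Ptges brighter probe, bases 30 to 59: aagtcagccccaATTAAAtgctttccttta

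Ptgs2 had the largest differences from PECs of the 8 tested enzyme genes. Its level was 4.98, 4.84 and 5.13 on the 3 F4/80high arrays and 1.66, 2.33 and 1.54 on the 3 F4/80low arrays. In PECs its 10 spots read −4.51, −4.39 and −4.64 and were not well above background on any array. The groups did not overlap, and the order was F4/80high, then F4/80low, then PECs. Since PECs give only an upper limit, the change is stated as a lower bound: each PEC array enters at the lowest reading of any probe well above background there, or at the probe's own reading where that is higher. By this bound Ptgs2 was at least 186-fold higher in F4/80high TAMs than in PECs (limma adjusted p = 2.74e-08) and at least 21.1-fold higher in F4/80low TAMs (adjusted p = 2.10e-07). A gene that passes the filter only through the groups where it is high has to differ, so these p-values are given as a description. The bounds hold for the background correction used here. The fitted differences of 9.50 and 6.36 became 5.29 and 2.39 with normexp correction, and 5.22 and 2.66 in the deposited value table, which lie below the bounds. Between the TAM subsets both levels were measured, and Ptgs2 was 8.83-fold higher in F4/80high TAMs (log2 difference 3.14, SE 0.22, adjusted p = 2.42e-05).

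Ptgs1, the constitutive cyclooxygenase, moved in opposite directions in the TAM subsets. Its level was 1.90, 2.12 and 2.14 in PECs, 4.36, 3.66 and 3.23 in F4/80high TAMs, and 1.60, −0.03 and 0.33 in F4/80low TAMs. Every F4/80high array lay above every PEC array, and every F4/80low array lay below every PEC array. Against PECs, Ptgs1 rose 3.25-fold in F4/80high TAMs (log2 difference 1.70, SE 0.42, adjusted p = 0.00764) and fell 2.67-fold in F4/80low TAMs (log2 difference −1.42, SE 0.42, adjusted p = 0.0187). The subsets themselves differed 8.68-fold (log2 difference 3.12, SE 0.42, 95% interval 2.18 to 4.06, adjusted p = 0.00062), or by 2.49 on the log2 scale with normexp correction.

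The difference between the subsets lies within slide 1, but both comparisons of Ptgs1 with PECs lost the threshold when slide was accounted for. With slide as a block the differences were 1.85 (adjusted p = 0.0519) and −1.27 (adjusted p = 0.160), and within slide 1, where the spread around PEC replicate 1 has to be borrowed from the TAM groups, they were 1.85 (adjusted p = 0.0784) and −1.27 (adjusted p = 0.206). The fall in F4/80low TAMs also missed it when any of 4 arrays was left out: PEC replicate 2 (−1.39) or 3 (−1.38), or F4/80low replicate 2 (−1.09) or 3 (−1.27). Ptgs1 is a known transcript of platelets and mast cells, so their markers were read beside it. The summed level of 5 platelet markers was 49.6 to 94.1 in PECs, 59.1 to 74.6 in F4/80high TAMs and 2.42 to 6.53 in F4/80low TAMs. Pf4, a chemokine gene that macrophages can also express, was the only one of the 5 above background on all arrays of each group, and Itga2b and Gp1bb were above background on no array. Most of each platelet sum was Pf4. Without it the sums were 0.26 to 1.05 in PECs, 0.43 to 0.72 in F4/80high TAMs and 0.40 to 0.48 in F4/80low TAMs. The summed level of 11 mast cell markers was 0.72 to 2.84 in PECs. It was 18.2 to 31.9 in F4/80high TAMs and 18.1 to 92.4 in F4/80low TAMs. Cma1, Mcpt1, Tpsab1 and Ms4a2 were above background on no array. Kit, Tpsb2 and Hdc exceeded it in each TAM replicate of either subset, and Mcpt2 in each F4/80low replicate. No mast cell marker did so in every PEC replicate. Gata2 went the other way, detected in 2 PEC replicates and in no TAM replicate. Most of the TAM sums was Hdc, the histidine decarboxylase gene, which other myeloid cells can also express; without it the sums were 0.68 to 2.79 in PECs, 1.31 to 2.05 in F4/80high TAMs and 3.46 to 5.15 in F4/80low TAMs. The part of these genes' source cells in the Ptgs1 result was not tested.

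**Figure D2:**
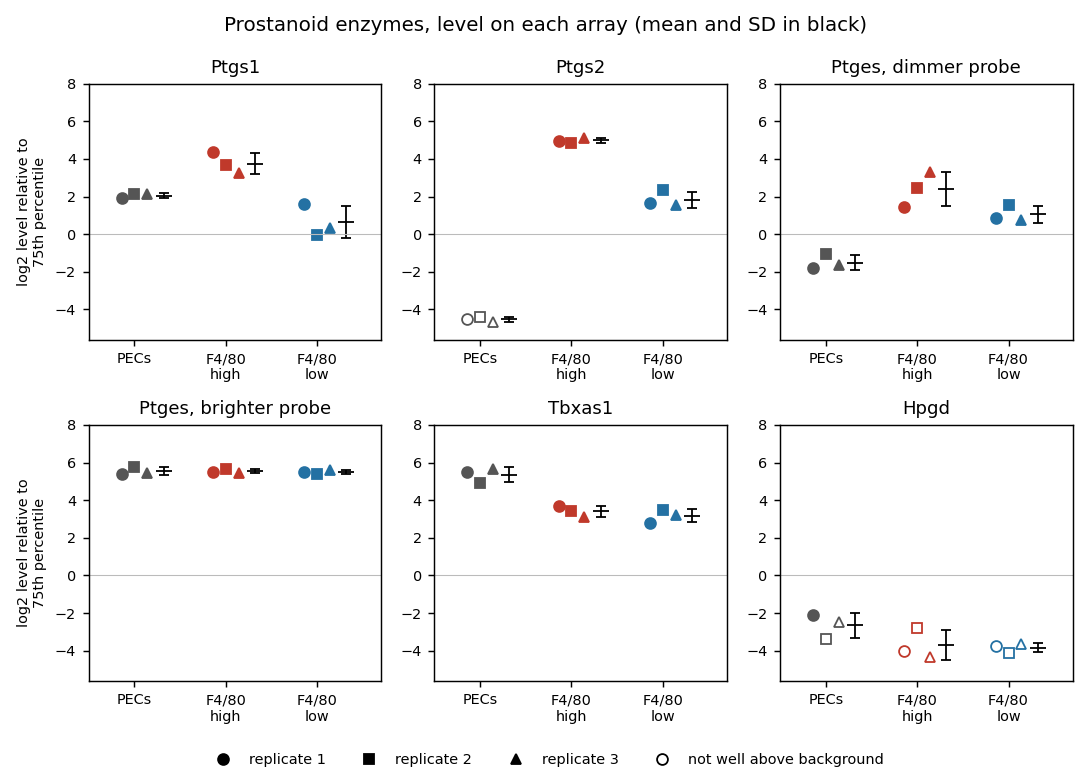
Levels of 5 prostaglandin and thromboxane genes on each of the 9 arrays, as log2 intensity relative to the array's 75th percentile; symbols are replicates, open symbols were not well above background, and black bars are the mean and SD of 3 arrays. Hpgd is drawn for the probe that was above background on 1 array. Ptgs2 lies between 4.84 and 5.13 in F4/80high TAMs and below background in PECs, while the panels of the Ptges probes differ, one rising in the TAMs and the other staying between 5.36 and 5.77.

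Both cyclooxygenases were thus higher in F4/80high than in F4/80low TAMs, and their promoters are shown because the genes moved together in that comparison. The sequences are the 250 bases before the annotated start, from RefSeq on GRCm38.p6, at chr1:150099781-150100030 for Ptgs2 and chr2:36230176-36230425 for Ptgs1, both on the plus strand. Capitals mark matches, on either strand, to any of 7 motifs searched: TATAAA (the TATA box), GAGGAA (a PU.1 core), TGACGTCA (the cAMP response element), TTGCNNCAA (a C/EBP form), a loose NF-kappaB form (GGG and CC with any 5 bases between them), a STAT6 form (TTC and GAA with any 4 bases between them) and an interferon response element (GAAA on both sides of any 2 bases).
Ptgs2 promoter: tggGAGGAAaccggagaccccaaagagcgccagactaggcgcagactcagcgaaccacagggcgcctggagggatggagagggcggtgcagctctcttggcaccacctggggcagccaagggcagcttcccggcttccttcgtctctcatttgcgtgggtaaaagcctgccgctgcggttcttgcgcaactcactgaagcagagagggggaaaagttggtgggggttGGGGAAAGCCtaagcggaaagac
Ptgs1 promoter: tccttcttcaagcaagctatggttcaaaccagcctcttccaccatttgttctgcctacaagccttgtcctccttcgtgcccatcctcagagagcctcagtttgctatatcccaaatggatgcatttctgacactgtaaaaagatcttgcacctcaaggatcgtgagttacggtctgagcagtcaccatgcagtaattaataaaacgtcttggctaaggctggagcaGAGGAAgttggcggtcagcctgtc

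The Ptgs2 window held the NF-kappaB form as GGGGAAAGCC, 23 to 14 bases before the start, and the PU.1 core 247 to 242 bases before it. The Ptgs1 window held the PU.1 core 24 to 19 bases before the start and the NF-kappaB form 27 to 36 bases after it. Windows of 300 bases, 250 before to 50 after the start, were found for 8 of the 10 genes and not for Alox5ap and Alox15. All 8 held the PU.1 core, against 28.28% of the 32851 windows in the table, and 5 of 8 held the NF-kappaB form, against 50.79%. The TATA box matched in Tbxas1 and Hpgd (13.62% of windows) and the STAT6 form in Ptges and Tbxas1 (6.95%). None of the 8 windows held the C/EBP form as searched (2.08% of windows), the cAMP response element (1.79%) or the interferon response element (3.44%). The C/EBP search covered only the spelling TTGCNNCAA, which TTGCGCAA in the Ptgs2 window does not match. Absence of a match is therefore not absence of a site. In Lta4h one match to the NF-kappaB form and the PU.1 core overlap. A match says only that these letters occur in the window.

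Ptges encodes the inducible microsomal prostaglandin E synthase, the terminal enzyme often coupled to COX-2, and its 2 probes disagreed. The brighter probe, which stood for the gene by the rule on brightness, read 5.40, 5.77 and 5.46 in PECs, 5.52, 5.66 and 5.46 in F4/80high TAMs, and 5.52, 5.36 and 5.61 in F4/80low TAMs. All 3 groups overlapped, and the differences from PECs were 0.00 (95% interval −0.37 to 0.38, adjusted p = 0.987) and −0.05 (−0.42 to 0.33, adjusted p = 0.836). The dimmer probe read −1.82, −1.06 and −1.66 in PECs, 1.45, 2.45 and 3.28 in F4/80high TAMs, and 0.87, 1.56 and 0.75 in F4/80low TAMs. It was above background on all 9 arrays, and every TAM array lay above every PEC array.

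In a limma fit over all 21197 probes that passed the filter, the dimmer Ptges probe rose in F4/80high TAMs (log2 difference 3.91, SE 0.44, adjusted p = 8.29e-05) and, 5.95-fold, in F4/80low TAMs (2.57, SE 0.44, adjusted p = 0.00125), where 52.5% and 50.8% of probes were called. Between the subsets it was 2.52-fold higher in F4/80high TAMs (1.33, SE 0.44, adjusted p = 0.0438), among 31.9% of probes called, although the arrays of the subsets overlapped. The stretch of the brighter probe shown above holds ATTAAA, while the dimmer probe lies upstream of it on the gene's strand and holds neither AATAAA nor ATTAAA. Which transcripts each probe detects was not tested. Taking the mean of both probes for the gene gave differences from PECs of 1.96 (adjusted p = 0.000196) and 1.26 (adjusted p = 0.00289), so the call for Ptges depends on the probe.

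Tbxas1, the thromboxane synthase gene, was lower in both TAM subsets. It read 5.52, 4.90 and 5.64 in PECs, 3.69, 3.45 and 3.09 in F4/80high TAMs, and 2.80, 3.47 and 3.23 in F4/80low TAMs. No TAM array reached a PEC array, whereas the subsets overlapped. Tbxas1 fell 3.85-fold in F4/80high TAMs (log2 difference −1.94, SE 0.27, adjusted p = 0.000281) and 4.55-fold in F4/80low TAMs (−2.19, SE 0.27, adjusted p = 0.000183). The difference between subsets did not pass (0.24, 95% interval −0.36 to 0.84, adjusted p = 0.530). Both falls passed with slide as a block (−2.11 and −2.35).

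Hpgd, whose product 15-hydroxyprostaglandin dehydrogenase inactivates prostaglandin E2, was at the edge of detection. One of its 2 probes was well above background on PEC replicate 1 alone, at −2.10, and read −3.37 and −2.48 on the other PEC arrays and −4.32 to −2.78 on the TAM arrays. The other probe, 398 bases away, was above background on no array. Neither probe passed the filter, and no fold is given for Hpgd.

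In the leukotriene branch, Alox5ap encodes FLAP, the membrane protein that hands arachidonic acid to 5-lipoxygenase. It read 6.65, 6.96 and 7.38 in PECs, 6.50, 6.30 and 5.87 in F4/80high TAMs, and 6.98, 5.47 and 5.37 in F4/80low TAMs. The F4/80high arrays lay just below the PEC arrays, and F4/80low replicate 1 lay among the PECs while replicates 2 and 3 lay below every other array. The differences from PECs were −0.77 in F4/80high TAMs (SE 0.41, adjusted p = 0.144) and −1.05 in F4/80low TAMs (SE 0.41, adjusted p = 0.0572), neither past the threshold. Without F4/80low replicate 1 the latter was −1.57 (SE 0.27, adjusted p = 0.00168). With slide as a block the differences were −0.43 and −0.71, with adjusted p = 0.613 and 0.401.

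Alox5, the 5-lipoxygenase gene itself, varied widely between replicates of each group. It read −1.19, 0.55 and 0.94 in PECs, 0.42, −0.71 and −1.52 in F4/80high TAMs, and 3.79, −0.02 and −0.77 in F4/80low TAMs. All groups overlapped, and F4/80low replicate 1 stood above all other arrays. No comparison passed: the differences were −0.70 (adjusted p = 0.614) for F4/80high TAMs and 0.90 (adjusted p = 0.516) for F4/80low TAMs, and −1.60 (adjusted p = 0.305) between subsets, with wide 95% intervals of −3.18 to 1.77, −1.58 to 3.37 and −4.08 to 0.87. Without F4/80low replicate 1, F4/80low TAMs differed from PECs by −0.50 (SE 0.70, adjusted p = 0.584) and the subsets by −0.21. With slide as a block, PEC replicate 1, the lowest PEC array for Alox5, alone sets the PEC level. The difference of F4/80high TAMs from PECs then also turned direction, to 0.58 (limma adjusted p = 0.796). That of F4/80low TAMs was 2.19 (adjusted p = 0.314).

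Lta4h encodes the hydrolase that makes leukotriene B4. It read 3.56, 4.35 and 4.06 in PECs, 2.54, 1.72 and 1.94 in F4/80high TAMs, and 4.20, 1.77 and 1.24 in F4/80low TAMs. The F4/80high arrays all lay below the PEC arrays, and F4/80low replicate 1 again stood among the PECs. Lta4h fell 3.79-fold in F4/80high TAMs (log2 difference −1.92, SE 0.65, adjusted p = 0.0332), and the difference of −1.58 in F4/80low TAMs did not pass (SE 0.65, adjusted p = 0.0687). Without F4/80low replicate 1 the latter was −2.48 (SE 0.32, adjusted p = 0.00045).

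The Lta4h call in F4/80high TAMs was close to the threshold. It was lost with slide as a block (−1.49, adjusted p = 0.265), within slide 1 (adjusted p = 0.313), with no filter on dim probes (adjusted p = 0.0781), and on leaving out replicate 2 or 3 of the PECs (−1.74 and −1.89) or of the F4/80high TAMs (−1.75 and −1.86). The subsets did not pass the test against each other (−0.34, 95% interval −1.82 to 1.14, adjusted p = 0.732).

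Alox5, Alox5ap and Lta4h were therefore all highest, within the F4/80low group, in replicate 1. That array also had the highest summed level of the 10 neutrophil markers, at 6708 against 2200 and 1837 in replicates 2 and 3, with S100a9, S100a8 and Csf3r the brightest of the list by mean level over the groups. Its summed mast cell level was 92.4 against 28.3 and 18.1, of which Hdc made up 88.9, 23.2 and 14.6, and that of 3 basophil markers was 5.89 against 0.21 and 0.19. F4/80high replicate 1 was also the highest of its group for Alox5 (0.42), Alox5ap (6.50) and Lta4h (2.54). Its neutrophil sum was the highest there (330.7 against 228.1 and 265.3) and its mast cell sum the lowest (18.2). In PECs, replicate 1 was the lowest for all 3 genes, with the highest neutrophil sum (170.0). Most of the sum in PECs and F4/80high TAMs was Csf3r. Without it the sums of replicates 1, 2 and 3 were 26.1, 22.5 and 27.8 in PECs, where replicate 3 was then highest. They were 102.7, 13.7 and 44.2 in F4/80high TAMs, and 6454, 2019 and 1605 in F4/80low TAMs. Alox5, Alox5ap and Lta4h are known to be active in neutrophils, mast cells and basophils as well as in macrophages. The part of those cells in the 3 genes' levels was not tested.

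**Figure D3:**
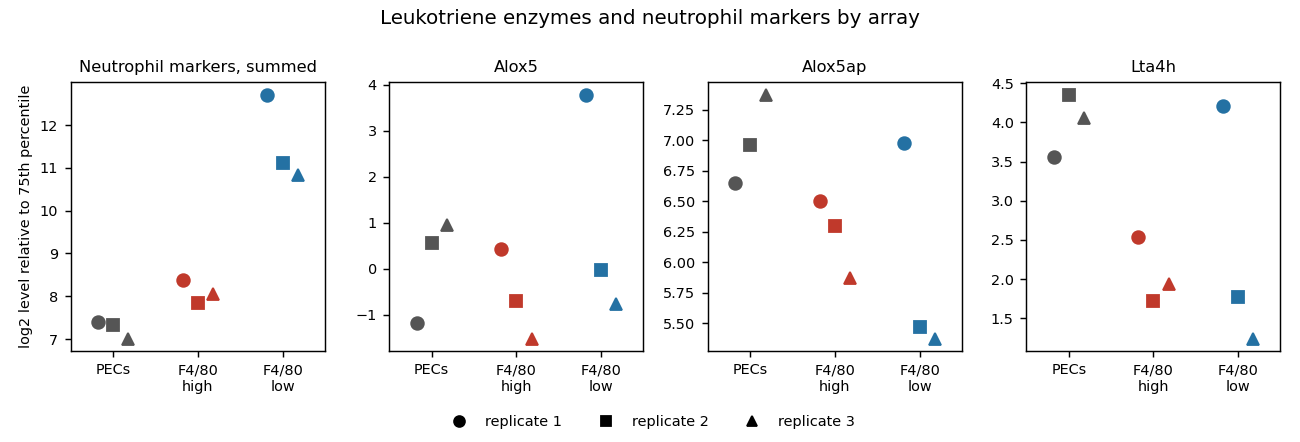
Level of the summed neutrophil markers, Alox5, Alox5ap and Lta4h on each array, as log2 relative to the array's 75th percentile, with a separate vertical scale in each panel and 1 symbol per replicate. F4/80low replicate 1 is the highest of its group in all 4 panels, at 3.79 for Alox5, 6.98 for Alox5ap and 4.20 for Lta4h.

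Ltc4s, the leukotriene C4 synthase gene, stayed within a narrow range. It read 2.28, 1.84 and 2.13 in PECs, 2.60, 2.23 and 2.06 in F4/80high TAMs, and 2.60, 2.38 and 2.08 in F4/80low TAMs, so all groups overlapped. Its differences from PECs were 0.22 (95% interval −0.27 to 0.70, adjusted p = 0.423) and 0.27 (−0.22 to 0.75, adjusted p = 0.320), and the subsets differed by −0.05 (−0.54 to 0.43, adjusted p = 0.879). The sign of the difference in F4/80low TAMs depended on the scaling: it was −0.21 with median centring and 0.48 with quantile normalisation, neither past the threshold.

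Alox15, the 12/15-lipoxygenase gene and a known marker of resident peritoneal macrophages, was not well above background on any of the 9 arrays, where it read −4.93 to −4.24. Its single 60-base probe matches chr11:70159115-70159339 on the minus strand of mm9, a span of 225 bases. Of the 8 markers of large peritoneal macrophages, Alox15 among them, 3 were above background on all PEC arrays (Gata6, Icam2 and Vsig4). Another 3 were on none (Timd4, Selp and Alox15). Gata6 and Vsig4 were above background on no TAM array, whereas Icam2 was on every TAM array. Naip1 went the other way, above background on all 3 F4/80high arrays and on 1 PEC array. In PECs, Gata6 averaged −0.49, below Vsig4 (3.54) and Icam2 (3.02). The summed level of those markers was 14.1 to 28.0 in PECs, 2.78 to 4.01 in F4/80high TAMs and 3.27 to 4.52 in F4/80low TAMs.

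The enzymes act within a wider pathway, for which 60 further genes were listed by role and 37 were bright enough to test. In F4/80high TAMs against PECs 9 rose, 18 fell and 10 did not pass, where 25% of all genes rose and 28% fell. In F4/80low TAMs the counts were 7, 18 and 12, beside 22.7% of all genes higher and 29.2% lower. Between the subsets 10 were higher in F4/80high TAMs, 11 were lower and 16 did not pass, beside 18.6% and 14% of all genes. The list was assembled with earlier results known and was not tested as a set, so these counts and those of the roles within it, read against the same shares, describe the genes and nothing more. The median log2 differences were −0.82, −0.78 and 0.03, against 0.00, −0.09 and 0.08 over all genes. Of the 37, 27 were above background on all 9 arrays, and among these 6 rose and 14 fell in F4/80high TAMs, and 3 rose and 13 fell in F4/80low TAMs. Of the others, Cysltr2, Fpr2, Ephx2 and Cyp2s1 passed the filter only through TAM groups where they were high. Ptgis, Mgll and Cyp2j6 passed it only through PECs, where they were high. As with Ptgs2, the calls of such genes are a description, and their bounds hold for the background correction used here. With slide as a block 18 of the 27 calls in F4/80high TAMs and 16 of the 25 in F4/80low TAMs were kept, and within slide 1 the numbers were 17 and 15. Without F4/80low replicate 1, 23 of the 25 calls against PECs and 17 of the 21 between the subsets were kept.

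Upstream of the cyclooxygenases, phospholipases and lipases release arachidonic acid. Of 12 genes for arachidonate supply 8 were tested: 2 rose and 4 fell in F4/80high TAMs, and 1 rose and 5 fell in F4/80low TAMs, where 53.1% and 51.9% of all genes were called. Pla2g4a, the cytosolic phospholipase that supplies the cyclooxygenases, rose by 2.46 in F4/80high TAMs (adjusted p = 0.00033) and was 2.53 higher there than in F4/80low TAMs (adjusted p = 0.00067), while the difference of F4/80low TAMs from PECs was −0.08 (adjusted p = 0.866). Pla2g4a was thus, like Ptgs1 and Ptgs2, higher in F4/80high than in F4/80low TAMs. Pla2g15, a lysosomal phospholipase, fell in both subsets (−3.33 and −3.23). Mgll, the monoacylglycerol lipase gene, was at least 12.8-fold lower in F4/80high TAMs, where it was above background on no array, and lower in F4/80low TAMs, where replicate 1 alone was above background (−0.33, against readings of −3.05 and −2.92).

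Among the other prostanoid synthases and reductases 7 of 8 were tested, of which 1 rose and 3 fell in F4/80high TAMs and 5 fell in F4/80low TAMs, again among 53.1% and 51.9% of all genes called. Ptgis, the prostacyclin synthase gene, fell in F4/80high TAMs, where 1 array was above background, and was at least 13.8-fold lower in F4/80low TAMs, where none was. Hpgds, a prostaglandin D synthase gene, fell in F4/80low TAMs, where 1 array was above background, and differed by −1.12 in F4/80high TAMs without passing (adjusted p = 0.0970). Ptges3, the cytosolic prostaglandin E synthase, rose by 0.64 in F4/80high TAMs, and Ptges2, another prostaglandin E synthase, fell by 0.85. Ptgis (−3.72, adjusted p = 0.0771) and Ptges2 (−0.59, adjusted p = 0.174) did not pass in F4/80high TAMs with slide as a block, and the fall of Ptgis in F4/80low TAMs did not pass within slide 1 (adjusted p = 0.0679).

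Only 3 of 9 prostanoid receptors were bright enough to test. Ptger2, a prostaglandin E2 receptor, rose by 1.16 in F4/80high TAMs (adjusted p = 0.0293) and was 1.95 higher there than in F4/80low TAMs (adjusted p = 0.00418). Ptger4, another receptor of the same ligand, fell by 1.36 in F4/80low TAMs and was 1.20 higher in F4/80high TAMs. Ptgir, the prostacyclin receptor, fell by 2.53 in F4/80high TAMs, and its difference of −0.73 in F4/80low TAMs did not pass. Of the 4 genes for prostanoid transport and breakdown 3 were tested, and Ptgr1, which reduces and inactivates prostaglandins and leukotriene B4, fell by 2.79 in F4/80high TAMs. The slide block left Ptger2 (0.65, adjusted p = 0.358), Ptgir (−1.56, adjusted p = 0.0520) and Ptgr1 (−1.74, adjusted p = 0.0589) short of the threshold in F4/80high TAMs, and Ptger4 in F4/80low TAMs (adjusted p = 0.165). The subset difference of Ptger4 did not pass without F4/80low replicate 1 (adjusted p = 0.0560).

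On the leukotriene side, 8 of 11 genes for later synthesis and breakdown were tested, and all 8 passed in F4/80high TAMs, 2 higher and 6 lower, among 53.1% of all genes called. In F4/80low TAMs 2 were higher and 3 lower, among 51.9% called. With a slide term Mgst2 (−2.45, adjusted p = 0.0819) and Cyp4f16 (−0.51, adjusted p = 0.257) no longer passed in F4/80high TAMs, nor did Mgst3 in F4/80low TAMs (−0.25, adjusted p = 0.491). The Mgst3 call in F4/80low TAMs was also lost without F4/80low replicate 1 (−0.66, adjusted p = 0.0557). The microsomal glutathione S-transferases Mgst1, Mgst2 and Mgst3 fell in F4/80high TAMs (−5.92, −2.55 and −1.77). Mgst2, which can make leukotriene C4 as Ltc4s does, differed by 0.85 in F4/80low TAMs without passing (adjusted p = 0.280) and was 10.6-fold lower in F4/80high than in F4/80low TAMs. F4/80low replicate 1 carried nearly all of the difference from PECs and a smaller part of the subset difference. Mgst2 read 4.32 there and 2.01 and 1.62 in replicates 2 and 3. Without replicate 1 the subset difference went from −3.40 to −2.57 and still passed (limma adjusted p = 0.00108). The difference from PECs was then 0.02, not past the threshold. Dpep2, a dipeptidase that converts leukotriene D4, fell in both subsets (−1.56 and −3.71). Cyp4f18, which degrades leukotriene B4, rose by 4.48 and 3.64, and Abcc1, an exporter of leukotriene C4, rose by 1.64 and 1.31, F4/80high TAMs first in each case. A slide term moved these to 3.37 and 2.53 for Cyp4f18 and to 2.46 and 2.13 for Abcc1, all past the threshold.

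Of 7 leukotriene and lipoxin receptors 4 were tested. Ltb4r1, the high-affinity leukotriene B4 receptor, rose by 3.02 in F4/80low TAMs (adjusted p = 0.0253, and 0.0650 with slide as a block) and was 16.1-fold lower in F4/80high than in F4/80low TAMs. Its F4/80low replicates read 5.21, 1.85 and 0.94, and without replicate 1 the difference was 1.75 from PECs (adjusted p = 0.0243) and −2.74 between the subsets (adjusted p = 0.00545). It is also a gene of neutrophils, whose markers were highest in F4/80low TAMs, and their part in this difference was not tested. Cysltr1, a cysteinyl leukotriene receptor, fell by 1.85 in F4/80low TAMs and was 2.42 higher in F4/80high TAMs. Cysltr2 was at least 6.60-fold higher in F4/80high TAMs than in PECs and at least 4.73-fold higher than in F4/80low TAMs. Fpr2, a formyl peptide receptor that also binds lipoxin A4, was at least 41.6-fold higher in F4/80high and at least 136-fold higher in F4/80low TAMs than in PECs. Its F4/80low replicates read 5.98, 4.31 and 3.30, in the same order as their summed neutrophil markers. The part of neutrophils in the Fpr2 difference was not tested. None of 5 further lipoxygenases passed the filter. Of 4 epoxide enzymes, Cyp2s1 rose and Ephx1 and Cyp2j6 fell in both subsets, among 53.1% and 51.9% of all genes called. Cyp2j6 was above background on no TAM array. Ephx2 rose in F4/80low TAMs (limma adjusted p = 0.0372), though 1 PEC array was above background and the arrays overlapped. That call was lost without F4/80low replicate 1. Ephx2 was also lower in F4/80high than in F4/80low TAMs. Cyp2s1 was above background on 1 of 3 PEC arrays, which read −2.07, −4.73 and −4.81, so its size against PECs is not given, and it was 5.00 lower in F4/80high than in F4/80low TAMs. The Ephx1 differences were −3.10 and −5.36, or −2.40 and −4.66 with a slide term.

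**Figure D4:**
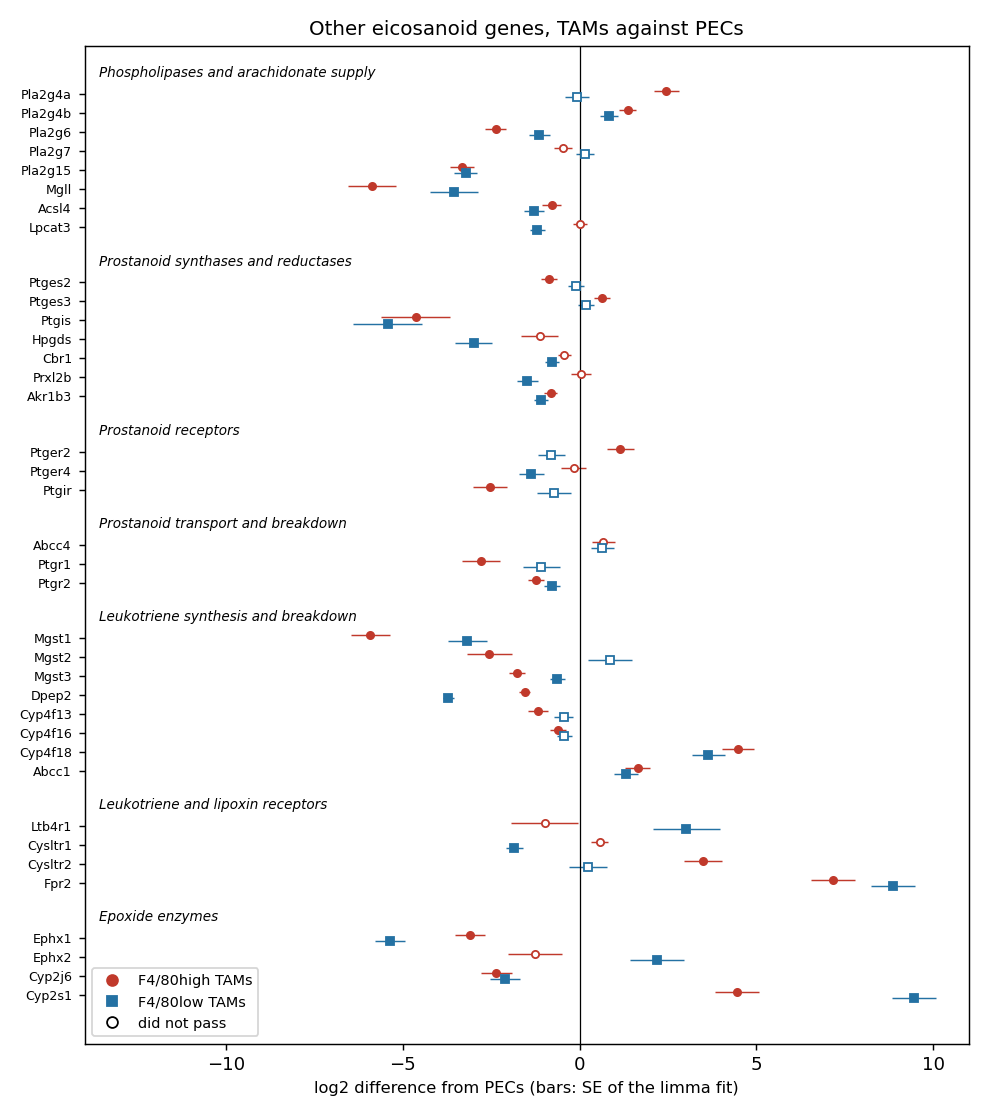
Log2 difference from PECs of the 37 tested genes of the wider pathway, grouped by role, with F4/80high TAMs in red and F4/80low TAMs in blue, bars giving the SE of the limma fit and open symbols marking differences that did not pass. Points of genes below background in a group, such as Mgll in F4/80high TAMs, are fitted values and not bounds. Pla2g4a lies at 2.46 in F4/80high and −0.08 in F4/80low TAMs.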

How the data were processed

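RNA of 9 samples was read on single-colour arrays of mouse genes. Per the file headers, the deposited arrays give the linear intensity of each spot from Agilent Feature Extraction 10.5.1.1, after its background subtraction, with probe positions on mm9. The deposited value table holds log2 values of 9703 probes; the log2 scale was inferred from its range, its normalization and probe filter are not given in the sources used here, its column medians were 8.26 to 8.35, and its correlation with the log2 scanner intensity was 0.960 to 0.978 across probes. It served as an alternative.

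Log2 processed intensity minus each array's 75th percentile was the level. Control spots and outlier spots (103 to 307 per array) were left out, and spots of a probe were averaged. A probe was used if every array of 1 or more groups had it well above background, and each gene was represented by its brightest probe. All 16462 genes were fitted with limma 3.58.1 (lmFit, eBayes, R 4.3.3) over 9 arrays, with two-sided tests and Benjamini-Hochberg adjustment at 0.05 within each of 3 contrasts. Precision is limited by having 9 arrays, with a median SE of 0.236. The procedure was tested on simulated data.

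A bound is based on the lowest signal of any probe above background, not of the gene's own probe. Summed marker levels are sums of linear levels, each relative to the percentile. Replicate numbers were checked for pairing through residual correlations across genes: same-numbered F4/80high and F4/80low arrays gave 0.233, 0.171 and 0.134, and different numbers gave no more than 0.023. The replicate block was therefore an alternative. PEC numbers showed no pairing (−0.096 to 0.091). Other alternatives were normexp correction, quantile and median scaling, other filters on dim probes, the mean of a gene's probes, 2-group fits, array weights, slide and leaving out each array. The genes named are all members, the tested genes of the wider list and the brightest or defining markers. Members, lists and motifs were chosen with earlier results of these data known, and the use of the other Ptges probe and the alternatives for the wider list were chosen after their values were seen.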

Additional observations from a re-analysis of the deposited data

Results flagged for a closer look

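Ptgs1 was set apart because its changes against PECs had opposite signs in the TAM subsets and both passed the limma threshold. The difference between the 2 changes, which is the difference between the subsets, was 3.12 on the log2 scale (SE 0.42, adjusted p = 0.00062), with every F4/80high array above every F4/80low array. Both comparisons share the PEC arrays. With slide as a block neither change against PECs passed, while the difference between the subsets does not involve PEC arrays.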

How the results depend on the processing

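Of 55 alternative counts of genes called, 48 stayed within 1.5 times the value reported. In F4/80high TAMs against PECs, 4 genes became 2 with a slide block and 2 on slide 1 alone, where calls over all genes went from 8737 to 5631 and 4894. In F4/80low TAMs against PECs, 3 became 5 with normexp correction, 5 with median centring, 5 with array weights and 5 without F4/80low replicate 1; the all-gene count of 8542 became 4904 with slide as a block, 4127 within slide 1 and 14388 with no filter on dim probes. Between the subsets 2 became 1 when only probes above background on all 9 arrays were used, since Ptgs2 then drops out by construction. Leaving out 1 array gave 3 to 4, 2 to 5 and 2 to 2 genes in the 3 comparisons. The replicate block, which pairs TAM arrays of 1 number, gave 4, 3 and 2 genes and changed no call. Ptges in F4/80low TAMs reversed to 1.26 with the mean of its probes and 2.57 with the dimmer probe; with that probe 5, 4 and 3 genes passed. Median centring moved the median of all genes by −0.16, −0.47 and 0.32, and quantile normalisation moved it by −0.11 between the subsets. Alox5ap passed in F4/80high TAMs with quantile normalisation, 2-group fits or array weights (adjusted p = 0.0334, 0.0329 and 0.0169), and in F4/80low TAMs with normexp correction, quantile normalisation, median centring, the filter over 9 arrays or array weights (0.0297, 0.0349, 0.0140, 0.0421 and 0.00848). Lta4h passed in F4/80low TAMs with normexp correction, median centring or array weights (0.0296, 0.0174 and 0.00995). Where not stated, the cause was not tested. Signal over background limits Hpgd and Alox15, and Ptgs2 in PECs.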
